A study of Mus musculus with 32 samples.

Results

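The interleukin-1 (IL-1) family was followed through 10 genes chosen by symbol, and all 10 were matched to their Ensembl identifiers among the 41388 genes counted. They were the ligands Il1a, Il1b and Il33, the antagonist Il1rn, the receptors Il1r1, Il1r2, Il1rap and Il1rl1, and Myd88 and Irak3 of the signalling complex. RNA sequencing covered 32 libraries of primary chondrocytes from the sternum and ribs of newborn C57BL/6 mice, 2 for each of 16 conditions, cultured in normoxia without passaging. Wild-type (WT) chondrocytes received no virus and were left untreated or given IL-1β (10 ng/mL), the LDHA inhibitor FX11 (40 µM) or both for 24 h. Chondrocytes of 3 floxed lines, LDHA flox, NAMPT flox and NFKBIZ flox, in which Cre recombinase can remove Ldha, Nampt or Nfkbiz, all received an adenovirus, either with eGFP alone (GFP) or with Cre and eGFP (Cre), and 24 h later were left without or given IL-1β for a further 24 h. No wild-type culture received the Cre virus, so an effect of Cre itself cannot be told apart from loss of the floxed gene.

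In this family an agonist, IL-1α or IL-1β, binds the receptor IL-1R1, and the accessory chain IL-1RAcP (Il1rap) then joins to form the signalling complex. MyD88 and kinases of the IRAK family are recruited to that complex and pass the signal to NF-κB. IL-33 signals in the same way through ST2 (Il1rl1) and the same accessory chain. The signal is held back at several points, by the receptor antagonist (Il1rn), which occupies IL-1R1 without activating it, by the decoy receptor IL-1R2 (Il1r2), and by IRAK-M (Irak3), an IRAK family member that damps signalling. In cartilage, IL-1β is a classical inducer of matrix-degrading enzymes in chondrocytes.

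The coordinates of the genes are those of GRCm38. Il1r2 (chr1:40084768-40125219), Il1r1 (chr1:40225080-40316198) and Il1rl1 (chr1:40429570-40465415) lie in that order on the plus strand of chromosome 1. Il1a (chr2:129299610-129309972) and Il1b (chr2:129364570-129371139) are neighbours on the minus strand of chromosome 2, with Il1rn (chr2:24336853-24351494) on the plus strand of the same chromosome. Il33 lies at chr19:29925114-29960718 and Il1rap at chr16:26581704-26730117, both on the plus strand, and Myd88 lies at chr9:119335934-119341411 and Irak3 at chr10:120141648-120202130, both on the minus strand. Annotated genes on the opposite strand overlap Il1a, Il1b, Il1r2, Il1rap, Myd88 and Irak3, and with the strand setting of the count not given in the sources used here, reads of such partners cannot be told apart from those of these 6 members.

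RefSeq promoter sequence (GRCm38.p6) was matched for all 10 members, in 16 windows of 250 bases before an annotated start. The windows below are shown because they lie before starts of the 4 members whose RNA rose most with IL-1β, with 1 window per member. Irak3, Il1rl1 and Il1r1 each had a further window that is not shown. The window shown lies before the more upstream start for Irak3 and Il1rl1 and before the more downstream start for Il1r1. Capitals mark a match to 1 of 4 motifs, which were the κB consensus, the AP-1 motif TGANTCA and the C/EBP motif TTGCNNAA on both strands and TATAAA on the strand of the gene.
Irak3, minus strand of chr10:120202131-120202380: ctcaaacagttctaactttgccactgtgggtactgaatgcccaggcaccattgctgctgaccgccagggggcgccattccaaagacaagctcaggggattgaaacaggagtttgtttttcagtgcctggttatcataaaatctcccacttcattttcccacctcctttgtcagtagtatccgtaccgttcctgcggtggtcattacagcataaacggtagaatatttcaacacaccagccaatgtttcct
Il1rl1, plus strand of chr1:40429320-40429569: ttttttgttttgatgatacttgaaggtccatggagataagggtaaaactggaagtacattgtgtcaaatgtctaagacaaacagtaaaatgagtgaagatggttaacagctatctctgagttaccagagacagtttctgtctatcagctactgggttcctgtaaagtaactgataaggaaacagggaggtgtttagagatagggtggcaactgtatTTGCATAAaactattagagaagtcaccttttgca
Il1rap, plus strand of chr16:26581455-26581704: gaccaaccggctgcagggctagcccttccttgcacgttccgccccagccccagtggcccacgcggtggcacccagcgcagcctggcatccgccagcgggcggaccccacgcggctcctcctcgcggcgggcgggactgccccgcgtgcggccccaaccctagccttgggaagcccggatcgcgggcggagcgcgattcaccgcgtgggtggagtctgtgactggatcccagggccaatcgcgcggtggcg
Il1r1, plus strand of chr1:40266336-40266585: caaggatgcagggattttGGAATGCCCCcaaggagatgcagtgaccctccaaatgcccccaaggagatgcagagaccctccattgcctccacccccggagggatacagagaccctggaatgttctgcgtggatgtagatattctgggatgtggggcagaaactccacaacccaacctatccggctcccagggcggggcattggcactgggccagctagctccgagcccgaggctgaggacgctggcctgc
The κB consensus was matched in 1 of the 16 windows, that of Il1r1 shown above, starting at -232 from the start, and in 3.90% of the 32851 windows of all genes. The Il1rl1 window shown held a C/EBP match at -34, a motif found in 9.56% of all windows, and the other window of Il1rl1 held no motif. Windows of Il1r1 and Il33 held other C/EBP matches at -133 and -85, the former in the Il1r1 window not shown. The windows of Irak3 and Il1rap held none of the motifs. AP-1 matches lay before Il1a at -12 and Il1rn at -141, against 6.75% of all windows, and TATAAA lay before Il1a at -32, Il1b at -31, Il33 at -29 and, in its other window, -203, and Myd88 at -160, against 7.59%. These matches describe the letters of the windows and no binding was measured.

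The total count per library ranged from 15830658 to 39959888. The labels do not say whether the 2 libraries of a condition came from separate cultures, so p-values measure only the spread between these libraries. Labels number the libraries in 2 sets, of 12 and 20, and all NFKBIZ flox libraries are in set 2. The targeted genes fell with Cre in their own lines, given as CPM (a count scaled to the library total) without IL-1β. Ldha went from 918 and 869 to 118 and 111, Nampt from 59.5 and 54.6 to 6.72 and 6.86, and Nfkbiz from 16.1 and 17.0 to 9.65 and 8.28. The cells carried cartilage markers, with Col2a1 at 51900 to 62300 CPM in GFP cultures without IL-1β. The summed level of 10 chondrocyte markers was 72000 to 94200 CPM there and 26500 to 33000 CPM with IL-1β, with 10 of 10 called lower. In wild type, 2 libraries of set 2 went against their labels at targets of IL-1. The library labelled IL-1β held Mmp3 at 0.784 CPM and no Il6 read, and the library labelled FX11 held Mmp3 at 2016 CPM and Il6 at 15.0 CPM.

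The 4 least abundant members were the agonist ligands, IL-33 and the decoy receptor. Il1a had 0 to 18 reads in a library, a median of 4.5, and Il1b had 0 to 31, a median of 3. Il1b was listed at 0 reads in 9 of 32 libraries and Il1r2 in 14 of 32, and a count of 0 allows up to 3 reads, for counting error only. Il33 had 2 to 75 reads with a median of 23. Reads of all 4 were therefore too few for the filter of the comparison over the 3 floxed lines, more than 1 CPM in at least 5 of 12 libraries.

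**Figure D1:**
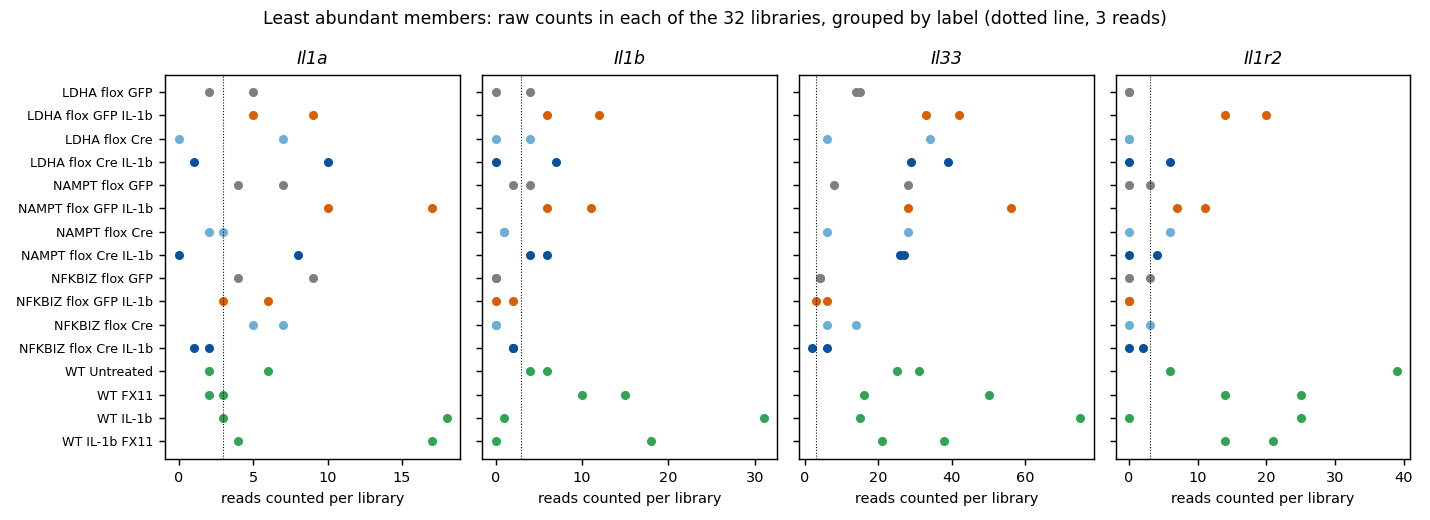
Raw reads counted for Il1a, Il1b, Il33 and Il1r2 (x axes, linear) in each of the 32 libraries, at 16 positions by labelled condition, with 1 point per library and a dotted line at 3 reads. The highest count of each gene was 18, 31, 75 and 39 reads.

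Among GFP cultures, the reads of Il1a were 5 and 2 in LDHA flox, 4 and 7 in NAMPT flox and 4 and 9 in NFKBIZ flox without IL-1β, and 9 and 5, 10 and 17, and 3 and 6 with IL-1β. Those of Il1b were 4 and 0, 2 and 4, and 0 and 0 without IL-1β, and 12 and 6, 6 and 11, and 0 and 2 with IL-1β. Il1b thus had more reads in both treated than in both untreated libraries of LDHA flox and of NAMPT flox and not of NFKBIZ flox, while those of Il1a overlapped in NFKBIZ flox and met at 5 reads in LDHA flox. The exogenous cytokine that was added is protein and gives no reads. Il1r2, the decoy, had 0 and 0 reads in LDHA flox and 3 and 0 in NAMPT flox without IL-1β, and 20 and 14 and 7 and 11 with it. In NFKBIZ flox GFP cultures, Il1r2 had 0 and 3 reads without and 0 and 0 with IL-1β. The treated libraries of LDHA flox and NAMPT flox thus lay above the untreated ones while those of NFKBIZ flox did not, and no test was made at these counts. Il33 passed the filter of the fits within LDHA flox and within NAMPT flox, and Il1a that within NAMPT flox. In NAMPT flox both passed through libraries with IL-1β alone, Il33 at 2.24 and 1.73 CPM with GFP and 1.08 CPM in 1 Cre library and Il1a at 1.05 CPM in 1 GFP library, so the filter favoured a higher value with IL-1β. In NAMPT flox GFP cultures it had 28 and 8 reads without and 56 and 28 with the cytokine, and its log2 fold change was 1.78 ± 0.53 (SE, n = 2 per group, adjusted p = 0.0249 in edgeR's quasi-likelihood test). That call was lost in 3 of 4 fits that left out 1 library, with adjusted p-values of 0.0488 to 0.124. In LDHA flox Il33 had 15 and 14 reads without and 42 and 33 with IL-1β, and a log2 fold change of 1.42 ± 0.56 with an adjusted p of 0.0903 in the same test. Il1a in NAMPT flox had a log2 fold change of 1.77 ± 0.96 with IL-1β (adjusted p = 0.183 in edgeR).

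Per length of gene, the adaptor and the receptors other than the decoy stood above the ligands Il1a, Il1b and Il33. In RPKM, as deposited by the authors, the medians over the 6 GFP libraries without IL-1β were 9.51 for Myd88, 5.42 for Il1r1, 3.04 for Il1rl1, 1.55 for Irak3, 0.754 for Il1rn and 0.556 for Il1rap. Below them lay Il33 at 0.142, Il1a at 0.0776, Il1b at 0.0131 and Il1r2 at 0 RPKM, whose highest libraries reached 0.243, 0.179, 0.106 and 0.0875 and overlapped. The ranges of Myd88 (8.30 to 10.1) and Il1r1 (2.58 to 6.40) did not overlap, whereas those of Il1r1 and Il1rl1 (1.16 to 4.78), of Il1rl1 and Irak3 (1.34 to 1.64) and of Il1rn (0.156 to 1.10) and Il1rap (0.378 to 0.767) did. With IL-1β the RPKM medians were 13.2 for Myd88, 12.4 for Il1r1, 11.9 for Irak3 and 10.4 for Il1rl1, and the ranges of these neighbours overlapped. Il1rap, the shared accessory chain, had a median of 1.63 RPKM and Il1rn 1.25 RPKM, below the lowest of those 4 in any library with IL-1β, which was 5.77 for Il1rl1. The gene length behind RPKM was 11360 bases for Il1rap, 5056 for Il1r1 and 2576 for Myd88, and distances between genes depend on it.

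IL-1β raised the receptor chains, the antagonist and both intracellular members in GFP-infected chondrocytes of the 3 floxed lines. The model held line and library set and compared 6 libraries of each treatment, and 6 of the 10 members passed the filter. All 6 were called higher, at a Benjamini-Hochberg adjusted p of 0.05 or less in edgeR's quasi-likelihood test, beside 28.0% of the 14283 genes tested, and the median log2 fold change of the 6 was 1.42 beside -0.01 over all genes. The libraries of the 2 treatments did not overlap for 4 of them, Irak3, Il1rl1, Il1rap and Il1r1, beside 10.5% of all genes tested with every treated library above every untreated one. A member under the filter could not be called, so these counts do not cover Il1a, Il1b, Il33 and Il1r2.

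Irak3, which encodes the inhibitory IRAK-M, changed most. It lay at 5.13 to 6.19 CPM without IL-1β, with a median of 6.03, and at 33.0 to 50.2 CPM with it, with a median of 44.0. The lowest treated library was far above the highest untreated one in every line, and the log2 fold change was 2.87 ± 0.07 (SE, n = 6 per group, adjusted p = 4.91e-15 in edgeR). Il1rl1, the IL-33 receptor ST2, lay at 8.55 to 33.4 CPM without IL-1β, with a median of 21.6, and at 40.5 to 125 CPM with it, with a median of 71.1. Its treated libraries all exceeded the untreated ones although the lines started from different levels, and the log2 fold change was 1.91 ± 0.07 (adjusted p = 5.59e-13 in edgeR). A known source of ST2 in tissue is the mast cell. Of 6 mast cell markers, Mcpt4 and Fcer1a had no read in any of the 32 libraries and Cpa3 had none in 27, while Kit, the stem cell factor receptor, had reads in all 32. The summed level of the 6 was 0.105 to 0.767 CPM without and 0.123 to 1.02 CPM with IL-1β in the GFP libraries, most of it Kit (medians of 0.220 and 0.490 CPM), and its part in the change of Il1rl1 was not tested.

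Il1rap lay at 4.58 to 9.09 CPM without IL-1β, with a median of 6.52, and at 15.3 to 23.8 CPM with it, with a median of 18.6. Il1r1, the signalling receptor of IL-1 itself, lay at 14.1 to 32.8 CPM without, with a median of 28.5, and at 43.8 to 74.8 CPM with IL-1β, with a median of 62.0. Neither gene's groups overlapped. The log2 fold changes were 1.55 ± 0.09 for Il1rap (adjusted p = 3.41e-10) and 1.29 ± 0.07 for Il1r1 (adjusted p = 2.15e-10), both from edgeR. Il1rn, the receptor antagonist, lay at 0.534 to 3.61 CPM without IL-1β, with a median of 2.52, and at 1.15 to 6.10 CPM with it, with a median of 3.98. These groups overlapped since NFKBIZ flox libraries held the least Il1rn, and with the line in the model its log2 fold change was 0.86 ± 0.18 (adjusted p = 5.04e-04 in edgeR). Taken over 16 control libraries with wild type included it was 0.70 with an adjusted p of 0.0539 in edgeR, and when the IL-1β library of wild type in set 2, whose IL-1 targets were not raised, was left out, it was 0.92 ± 0.14 with an adjusted p of 1.22e-04. Myd88 moved least, from 23.1 to 26.8 CPM without and 26.1 to 35.7 CPM with IL-1β, with medians of 25.2 and 34.4, and its log2 fold change was 0.37 ± 0.07 (adjusted p = 2.21e-04 in edgeR). In set 2 alone the log2 fold changes were 2.95 for Irak3, 1.96 for Il1rl1, 1.52 for Il1rap, 1.37 for Il1r1, 1.00 for Il1rn and 0.43 for Myd88, and in set 1 alone they were 2.75, 1.85, 1.60, 1.18, 0.74 and 0.27. All 12 of these within-set values had an adjusted p of 0.05 or less in edgeR.

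Some leukocyte markers also rose in these libraries. Of 10 macrophage and leukocyte markers 5 were tested and 4 were called higher, beside 28.0% of all genes. The summed level of the 10 was 15.3 to 26.4 CPM without and 33.5 to 66.8 CPM with IL-1β. Medians rose for Cd68 (8.44 to 17.2 CPM), Cd14 (1.59 to 8.61), Lyz2 (4.51 to 7.16) and Itgam (1.13 to 1.85). They moved little for Csf1r (2.44 to 2.77 CPM), Fcgr1 (0.385 to 0.368), Tyrobp (0.578 to 0.605) and Cd52 (0.194 to 0.221). Ptprc, which encodes the pan-leukocyte antigen CD45, lay at 0.203 to 1.21 CPM without and 0.401 to 1.12 CPM with IL-1β, with medians of 0.326 and 0.523. Adgre1 lay at 0.457 to 0.848 CPM without and 0.200 to 1.09 CPM with IL-1β, with medians of 0.674 and 0.956. Summed over 6 neutrophil markers the level was 7.28 to 8.48 CPM without and 12.7 to 16.0 CPM with IL-1β in LDHA flox GFP cultures. It was 3.55 to 3.68 against 5.09 to 6.11 CPM in those of NAMPT flox. In NFKBIZ flox it was 1.78 to 2.91 against 3.83 to 4.26 CPM. In these GFP libraries 4 of the 6 never exceeded 1 CPM. Whether leukocytes had a part in the changes of the members was not tested. In bulk libraries, fewer cells of a type and less RNA per cell cannot be told apart.

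**Figure D2:**
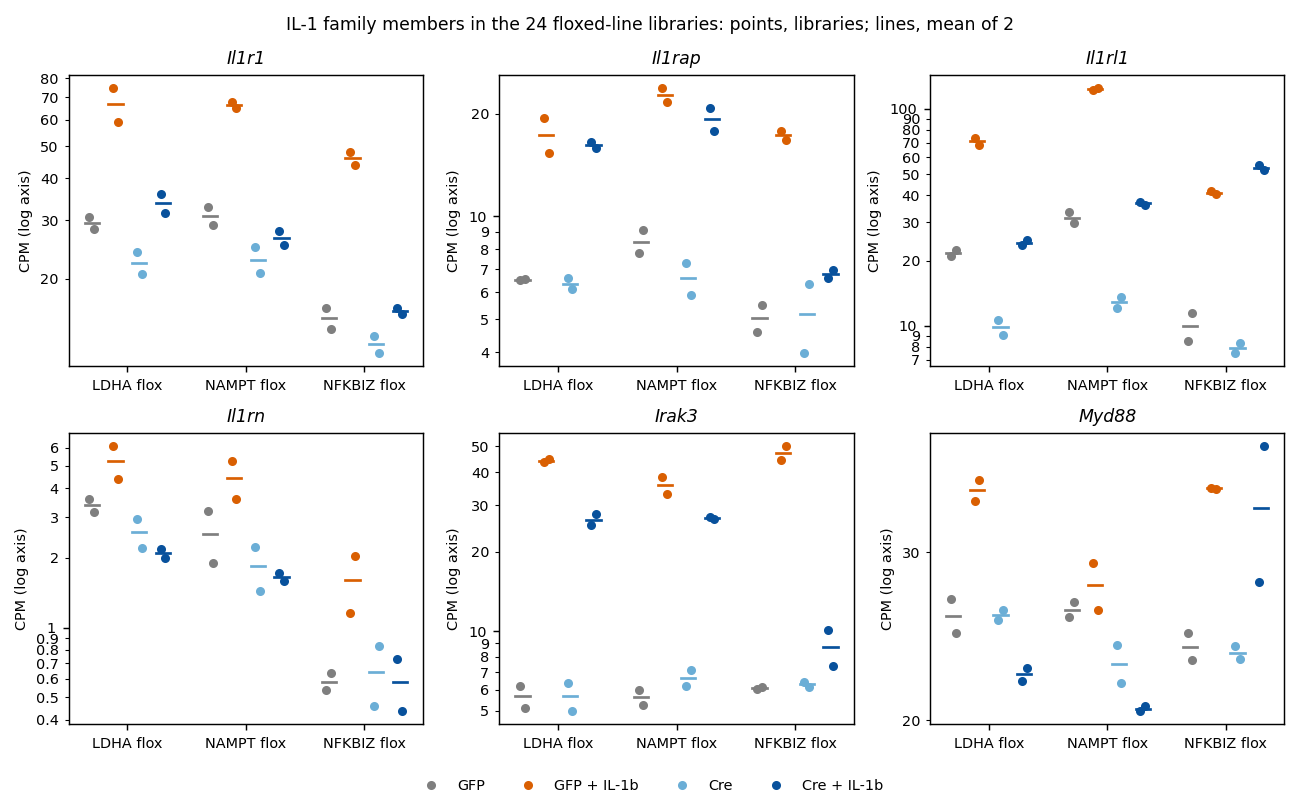
CPM on log axes of the 6 members that passed the filter over the GFP cultures, for LDHA flox, NAMPT flox and NFKBIZ flox, with 1 point per library, a line at the mean of 2 libraries and a colour for each of 4 treatments (GFP, GFP with IL-1β, Cre, Cre with IL-1β). In NFKBIZ flox cultures with Cre and IL-1β, Irak3 lay at 10.1 and 7.35 CPM and Il1rl1 at 55.2 and 52.1 CPM.

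Within each line the same receptors answered. In LDHA flox GFP cultures 5 of 7 tested members were called higher with IL-1β (14.5% of all genes tested), and in NFKBIZ flox 5 of 6 (15.2%). In NAMPT flox 5 of 8 were called (17.7%), which with Il33 and Il1a, the members let in by their treated libraries, left aside becomes 4 of 6. The log2 fold changes of Irak3 were 2.95 ± 0.14, 2.67 ± 0.12 and 2.97 ± 0.16 in LDHA flox, NAMPT flox and NFKBIZ flox, and those of Il1rl1 were 1.71 ± 0.10, 1.98 ± 0.09 and 2.05 ± 0.14 (SE, n = 2 per group). Those of Il1rap were 1.41 ± 0.14, 1.47 ± 0.14 and 1.79 ± 0.21, and those of Il1r1 were 1.19 ± 0.13, 1.13 ± 0.10 and 1.61 ± 0.12. Each of these 12 values passed the threshold in edgeR. Myd88 was called in LDHA flox (0.43 ± 0.08) and NFKBIZ flox (0.56 ± 0.14), the latter lost in 3 of 4 fits that left out 1 library (adjusted p = 0.0443 to 0.0794), and in NAMPT flox it had 0.11 ± 0.09 with an adjusted p of 0.386 in edgeR. Il1rn was called in no single line, with log2 fold changes of 0.63, 0.79 and 1.47 and adjusted p-values of 0.0832, 0.0866 and 0.0540 in edgeR. It passed in LDHA flox and NAMPT flox with the library set as a block (adjusted p = 0.0280 and 0.0131), and in NFKBIZ flox in limma (0.0243), with no filter (0.0347) and in the fit of 24 libraries (0.0106). In NFKBIZ flox Il1rn, counted among the 6 tested, exceeded 1 CPM only in GFP libraries with IL-1β, at 1.15 and 2.04 CPM. The filter of that fit thus favoured a higher value with IL-1β. When the difference of the response between 2 lines was itself tested, no member was called in any of the 3 pairs of lines, beside 0.00598% of 16727 genes for LDHA flox against NAMPT flox, 1.48% for NFKBIZ flox against LDHA flox and 2.65% for NFKBIZ flox against NAMPT flox. At an unadjusted p under 0.05, Il1r1 differed in both pairs with NFKBIZ flox, Il1rl1 in NFKBIZ flox against LDHA flox and Myd88 in NFKBIZ flox against NAMPT flox.

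The lines differed in level before any treatment, in a comparison that the design does not separate from the preparation of the cells. Without IL-1β, GFP cultures of NFKBIZ flox held Il1r1 at 16.4 and 14.1 CPM, against 30.6 and 28.2 CPM in LDHA flox and 32.8 and 28.9 CPM in NAMPT flox. Il1rl1 was at 8.55 and 11.5 CPM in NFKBIZ flox, 21.0 and 22.3 CPM in LDHA flox and 33.4 and 29.8 CPM in NAMPT flox, so the 3 lines did not overlap. The libraries of set 2 alone kept this order of NFKBIZ flox below the others, with Il1r1 at 28.2 CPM in LDHA flox and 28.9 CPM in NAMPT flox and Il1rl1 at 22.3 and 29.8 CPM. Irak3 lay between 5.13 and 6.19 CPM in all 6 libraries. Summed over 6 fibroblast and perichondrium markers the level was 791 to 962 CPM in NFKBIZ flox, 4390 to 4470 CPM in LDHA flox and 3680 to 3830 CPM in NAMPT flox, and the part of this difference in the levels of Il1r1 and Il1rl1 was not tested.

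The next comparison asked whether the IL-1 system of the chondrocytes changed with loss of the floxed gene in the absence of added cytokine. Il1rl1 fell in LDHA flox and NAMPT flox. It went from 21.0 and 22.3 CPM with GFP to 10.7 and 9.05 CPM with Cre in LDHA flox, and from 33.4 and 29.8 to 12.2 and 13.6 CPM in NAMPT flox. The Cre libraries lay below the GFP libraries in both lines, with log2 fold changes of -1.15 ± 0.10 (adjusted p = 2.29e-04) and -1.31 ± 0.09 (adjusted p = 6.10e-06) in edgeR. It was the only member called in LDHA flox (2.09% of all genes tested were called lower). In NAMPT flox Il1r1 was also called lower (6.07% of all genes), at 32.8 and 28.9 CPM with GFP and 24.9 and 20.7 CPM with Cre, with a log2 fold change of -0.44 ± 0.10 (adjusted p = 0.0150 in edgeR), and this call was lost without GFP replicate 1 (-0.35, adjusted p = 0.126) or Cre replicate 2 (-0.33, adjusted p = 0.119). In NFKBIZ flox no member was called in edgeR and 0.260% of all genes were, 40 genes against 910 at an unadjusted p under 0.05. Il1rl1 was the member under that unadjusted p, at -0.35 ± 0.15 with an adjusted p of 0.788. Nfkbiz lay in GFP cultures of that line at 16.1 and 17.0 CPM without and at 235 and 229 CPM with IL-1β.

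Markers moved with Cre without IL-1β as well. The summed chondrocyte markers were 73100 and 73200 CPM with GFP and 52900 and 53000 CPM with Cre in LDHA flox, with 8 of 10 called lower, 72000 and 73000 against 50100 and 50500 CPM in NAMPT flox, with 10 of 10 called lower, and 83000 and 94200 against 72300 and 86000 CPM in NFKBIZ flox, with 0 called. Epithelial markers went from 1.90 to 2.49 CPM with GFP to 9.45 to 11.3 CPM with Cre in LDHA flox and from 1.67 to 2.05 to 17.4 to 19.1 CPM in NAMPT flox, with 3 of 4 tested called higher in both. No epithelial marker exceeded 1 CPM in these NAMPT flox GFP libraries, and 4 of 5 did not in those of LDHA flox. The filter thus favoured a call of higher with Cre. Genes called in either direction were 877 of 15880 in LDHA flox and 2319 of 16136 in NAMPT flox. Endothelial markers were 3.67 and 3.78 against 10.2 and 11.0 CPM and 3.68 and 4.26 against 14.3 and 14.4 CPM in these lines, with 1 of 4 tested called higher in each, and 3 and 4 of 6 fibroblast markers were called lower. The part of these shifts in the lower Il1rl1 and Il1r1 was not tested.

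Under IL-1β, the lines differed in which members were lower with Cre. In LDHA flox and NAMPT flox the receptors Il1rl1 and Il1r1, the antagonist Il1rn, Myd88 and Irak3 were called lower, and Il1rap was not called. In NFKBIZ flox Irak3, Il1r1 and Il1rap were called lower, and Il1rn had a fold change of the same size without passing the test. There were 5 members called of 7 tested in LDHA flox (17.0% of all genes called lower), 5 of 8 in NAMPT flox (23.4%) and 3 of 6 in NFKBIZ flox (9.20%), all of them lower. The median log2 fold changes of the tested members were -0.72, -1.23 and -1.42, beside -0.02, -0.03 and -0.01 over all genes. That of NAMPT flox includes Il1a (-2.43) and Il33 (-1.15), and that of NFKBIZ flox includes Il1rn (-1.47). These members passed the filter only through libraries with IL-1β, Il1a and Il1rn through GFP ones alone. The filter thus favoured a lower value with Cre for Il1a and Il1rn, and the medians of these lines carry that bias.

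Il1rl1 under IL-1β was at 73.8 and 68.4 CPM with GFP and 23.5 and 25.0 CPM with Cre in LDHA flox. In NAMPT flox it was at 122 and 125 CPM with GFP and 37.3 and 36.2 CPM with Cre. In NFKBIZ flox it was at 41.9 and 40.5 CPM with GFP and 55.2 and 52.1 CPM with Cre. The Cre libraries were thus the low ones in 2 lines and the high ones in the third. The log2 fold changes were -1.53 ± 0.10 (adjusted p = 2.30e-06) in LDHA flox and -1.73 ± 0.08 (adjusted p = 5.32e-08) in NAMPT flox, and in NFKBIZ flox 0.37 ± 0.13 with an adjusted p of 0.0681, all in edgeR. The NFKBIZ flox value passed the threshold when all 24 floxed libraries were fitted together (0.38, adjusted p = 0.0118 in edgeR). The difference itself was called, at 1.93 ± 0.15 for NFKBIZ flox minus LDHA flox (adjusted p = 7.59e-09, 22.5% of all genes called) and 2.14 ± 0.15 for NFKBIZ flox minus NAMPT flox (adjusted p = 9.15e-10, 32.2% called) in edgeR.

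Irak3 was lowest with Cre in NFKBIZ flox. Under IL-1β it was at 43.5 and 44.7 CPM with GFP and 25.2 and 27.7 CPM with Cre in LDHA flox, and at 38.3 and 33.0 CPM with GFP and 27.1 and 26.5 CPM with Cre in NAMPT flox. In NFKBIZ flox it was at 44.5 and 50.2 CPM with GFP and 10.1 and 7.35 CPM with Cre, beside 6.05 and 6.16 CPM in GFP cultures that had received no IL-1β. The Cre libraries were below the GFP libraries in every line. The log2 fold changes were -0.72 ± 0.12 (adjusted p = 0.00136), -0.40 ± 0.11 (adjusted p = 0.0118) and -2.46 ± 0.16 (adjusted p = 3.83e-07) in LDHA flox, NAMPT flox and NFKBIZ flox in edgeR. The NAMPT flox call was lost without GFP with IL-1β replicate 1 (-0.33, adjusted p = 0.0822) or Cre with IL-1β replicate 2 (-0.38, adjusted p = 0.0663). The drop in NFKBIZ flox exceeded that in LDHA flox by -1.70 ± 0.19 (adjusted p = 1.11e-06) and that in NAMPT flox by -2.01 ± 0.19 (adjusted p = 7.62e-08) in edgeR.

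Il1rap, the chain that both IL-1R1 and ST2 need, was at 19.4 and 15.3 CPM with GFP and 16.5 and 15.8 CPM with Cre in LDHA flox under IL-1β, and at 23.8 and 21.7 against 20.7 and 17.8 CPM in NAMPT flox. In NFKBIZ flox it was at 17.8 and 16.8 CPM with GFP and 6.62 and 6.96 CPM with Cre. The groups overlapped in LDHA flox and were far apart in NFKBIZ flox, with log2 fold changes of -0.08 ± 0.13, -0.22 ± 0.14 and -1.36 ± 0.20 and adjusted p-values of 0.682, 0.207 and 4.91e-04 in edgeR. The differences between NFKBIZ flox and the other lines were -1.24 ± 0.24 and -1.10 ± 0.23, both called in edgeR.

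Il1r1 fell in every line. It was at 74.9 and 59.1 CPM with GFP and 35.9 and 31.5 CPM with Cre in LDHA flox, at 68.0 and 65.0 against 27.8 and 25.3 CPM in NAMPT flox, and at 48.2 and 43.8 against 16.3 and 15.7 CPM in NFKBIZ flox. No group overlapped with its partner, and the log2 fold changes were -0.97 ± 0.12, -1.31 ± 0.10 and -1.54 ± 0.12, each called in edgeR. The drop in NFKBIZ flox was the larger against LDHA flox (-0.54 ± 0.17, adjusted p = 0.0296 in edgeR and 0.0833 in limma), while against NAMPT flox the difference was -0.19 ± 0.17 with an adjusted p of 0.449. Il1rn was at 6.10 and 4.37 CPM with GFP and 2.18 and 2.01 CPM with Cre in LDHA flox, at 5.25 and 3.58 against 1.71 and 1.59 CPM in NAMPT flox, and at 1.15 and 2.04 against 0.730 and 0.435 CPM in NFKBIZ flox. All Cre libraries were the lower ones, and the log2 fold changes were -1.30 ± 0.25, -1.41 ± 0.34 and -1.47 ± 0.52. The last was not called (adjusted p = 0.0720 in edgeR), though it passed with no filter (0.0441) and in the fit of 24 libraries (0.0152). In the fit of NFKBIZ flox, Il1rn passed the filter through its GFP libraries with IL-1β alone, which favoured a lower value with Cre. The NAMPT flox call was lost without GFP with IL-1β replicate 1 (-1.14, adjusted p = 0.0562 in edgeR). The drop of Il1rn in NFKBIZ flox differed from that in LDHA flox by -0.14 ± 0.52 and from that in NAMPT flox by -0.02 ± 0.44, neither called in edgeR. Myd88 was called lower in LDHA flox (-0.62 ± 0.09) and NAMPT flox (-0.41 ± 0.09), and in NFKBIZ flox it had -0.09 ± 0.14 with an adjusted p of 0.724 in edgeR. Between LDHA flox and NAMPT flox no member's Cre effect under IL-1β was called different, beside 0.138% of all genes, and none had an unadjusted p under 0.05 in edgeR.

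The scarce members were counted in the same libraries. With Cre and IL-1β, Il1r2 had 6 and 0 reads in LDHA flox, 4 and 0 in NAMPT flox and 2 and 0 in NFKBIZ flox, against the 20 and 14, 7 and 11, and 0 and 0 of GFP cultures with IL-1β. Scaled for depth, the GFP cultures with IL-1β held Il1r2 at 0.535 and 0.659 CPM in LDHA flox and 0.281 and 0.679 CPM in NAMPT flox, and the Cre cultures with IL-1β at no more than 0.199 CPM in both lines. In the wild-type library of set 1 labelled untreated it reached 1.15 CPM, and these counts were too low to test. Il33 had 39 and 29, 27 and 26, and 6 and 2 reads with Cre and IL-1β, and the log2 fold change of Il33 over GFP was 0.07 ± 0.52 in LDHA flox and -1.15 ± 0.51 in NAMPT flox, with adjusted p-values of 0.939 and 0.0869 in edgeR. Il1b had 7 and 0, 6 and 4, and 2 and 2 reads with Cre and IL-1β, and Il1a had 10 and 1, 8 and 0, and 1 and 2. In NAMPT flox the log2 fold change of Il1a over GFP was -2.43 ± 1.00 with an adjusted p of 0.0676 in edgeR. Il1a had passed the filter there through 1 GFP library with IL-1β, which favoured a lower value with Cre.

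**Figure D3:**
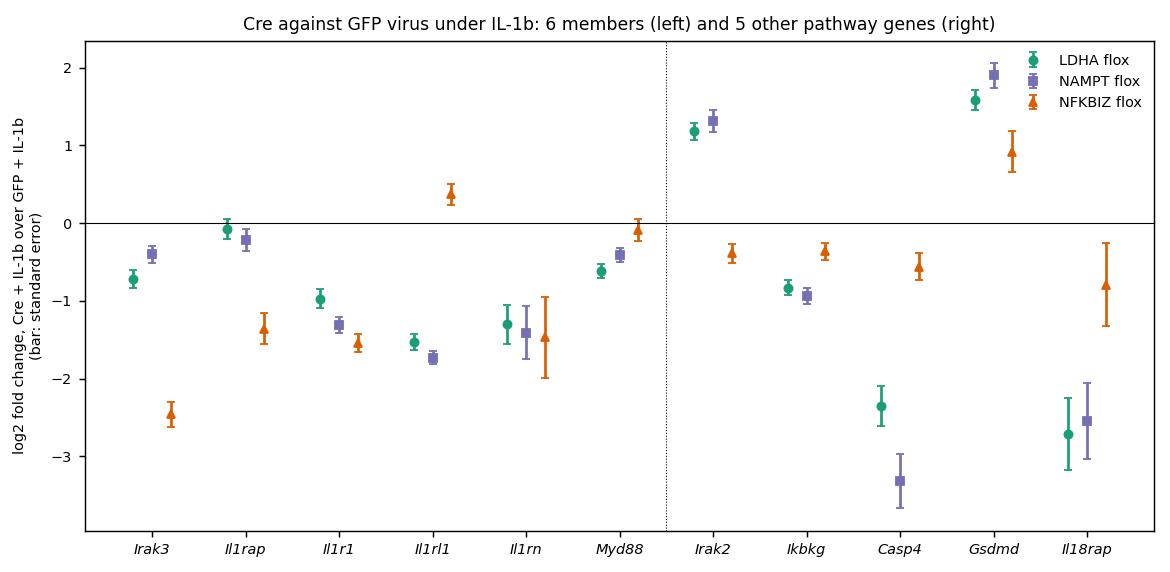
Log2 fold change of Cre over GFP cultures under IL-1β (y axis, bars are standard errors from edgeR) for 6 members and 5 other pathway genes, with a marker for each floxed line and 2 libraries per group. Il1rl1 was at -1.53 in LDHA flox, -1.73 in NAMPT flox and 0.37 in NFKBIZ flox, and Irak3 at -0.72, -0.40 and -2.46.

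Cartilage and other markers moved with Cre in the same libraries. Under IL-1β the summed chondrocyte markers were 26900 and 27400 CPM with GFP and 13900 and 14800 CPM with Cre in LDHA flox, with 9 of 10 called lower, and 26500 and 27100 against 14800 and 15200 CPM in NAMPT flox, with 8 of 10 called lower. In NFKBIZ flox they were 30700 and 33000 against 36900 and 39500 CPM, with 1 of 10 called each way. The summed level of 5 epithelial markers was 2.12 to 2.76 CPM with GFP and 41.4 to 45.4 CPM with Cre in LDHA flox and 1.79 to 1.96 against 59.3 to 61.0 CPM in NAMPT flox. In both lines 4 of 4 tested were called higher, beside 16.9% and 25.0% of all genes. With GFP and IL-1β, 4 of the 5 never exceeded 1 CPM in LDHA flox and none did in NAMPT flox, so the filter favoured these calls. The summed level was 0.902 to 1.30 against 0.859 to 1.87 CPM in NFKBIZ flox. Endothelial markers were 5.24 to 5.74 against 17.1 to 21.2 CPM, 6.85 to 7.61 against 23.2 to 26.4 CPM and 3.78 to 5.01 against 7.05 to 7.83 CPM in LDHA flox, NAMPT flox and NFKBIZ flox. Fibroblast markers were 3490 to 3570 against 2130 to 2150 CPM, 3060 to 3100 against 1830 to 1870 CPM and 819 to 853 against 680 to 698 CPM, with 6, 6 and 2 of 6 called lower. Summed macrophage and leukocyte markers were 41.8 to 43.7 CPM with GFP and 30.7 to 32.9 CPM with Cre in LDHA flox. They were 33.5 to 39.3 against 24.1 to 24.2 CPM in NAMPT flox. In NFKBIZ flox they were 64.6 to 66.8 against 58.4 to 60.7 CPM. Summed neutrophil markers were 12.7 to 16.0 against 8.50 to 9.84 CPM in LDHA flox. They were 5.09 to 6.11 against 2.30 to 4.00 CPM in NAMPT flox and 3.83 to 4.26 against 1.57 to 3.18 CPM in NFKBIZ flox. The part of these shifts in the changes of the members was not tested.

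The response to IL-1β was then compared between Cre and GFP cultures of a line, as the interaction of the 2 treatments. In LDHA flox Cre cultures 4 members were still called higher with IL-1β (19.5% of all genes), and in NAMPT flox 3 were (24.3%), with Irak3 at 2.24 ± 0.14 and 2.06 ± 0.12, Il1rap at 1.38 ± 0.14 and 1.59 ± 0.14 and Il1rl1 at 1.33 ± 0.10 and 1.56 ± 0.09 on the log2 scale. Il1r1 was called in LDHA flox (0.63 ± 0.13), and in NAMPT flox it had 0.27 ± 0.10 with an adjusted p of 0.0588 in edgeR. In NFKBIZ flox Cre cultures the called members were Il1rl1, which rose by 2.77 ± 0.14 on the log2 scale from 7.50 and 8.37 CPM to 55.2 and 52.1 CPM, and Myd88, at 0.51 ± 0.14 (11.7% of all genes). Myd88 was at 27.9 and 38.7 CPM in the treated Cre libraries, and without the second of these its value was 0.26 with an adjusted p of 0.147, and the call was also lost without either untreated Cre library (0.53 and 0.50, adjusted p = 0.0593 and 0.112 in edgeR). Irak3 there had 0.48 ± 0.17, Il1rap 0.40 ± 0.22 and Il1r1 0.34 ± 0.13, with adjusted p-values of 0.0592, 0.203 and 0.0772 in edgeR.

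**Figure D4:**
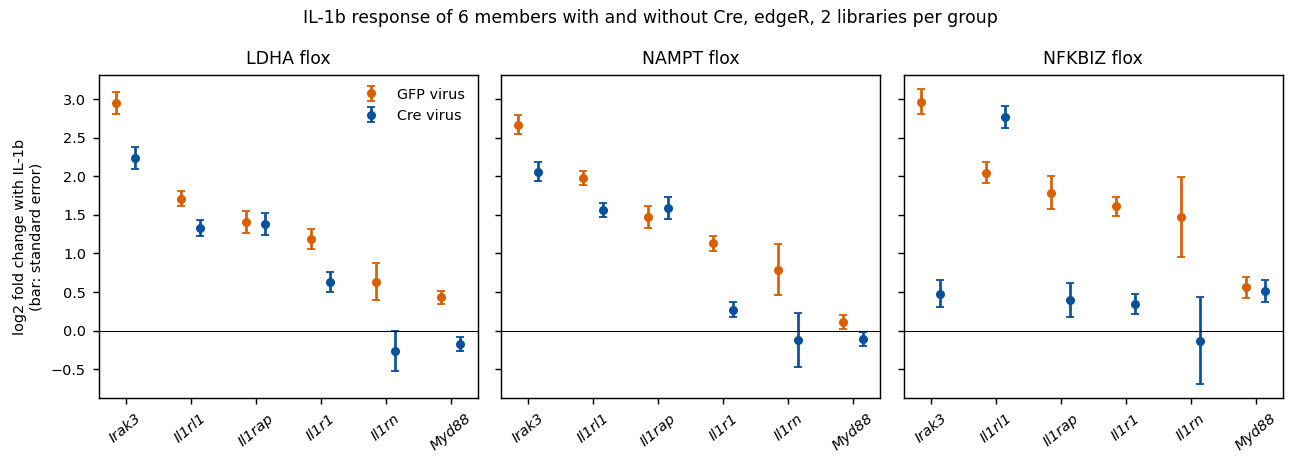
Log2 fold change with IL-1β (y axis, bars are standard errors from edgeR) of 6 members in GFP and in Cre cultures of each floxed line, 2 libraries per group. In NFKBIZ flox, Irak3 went from 2.97 with GFP to 0.48 with Cre, and Il1rl1 from 2.05 to 2.77.

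The interaction was called for Irak3 and Myd88 in LDHA flox (5.6% of all genes called lower), at -0.71 ± 0.19 (adjusted p = 0.0395) and -0.60 ± 0.12 (adjusted p = 0.0114) in edgeR. In NAMPT flox it was called for Il1r1 at -0.86 ± 0.14, Irak3 at -0.61 ± 0.17 and Il1rl1 at -0.42 ± 0.12 (9.98% of all genes). In NFKBIZ flox it was called for Irak3 at -2.49 ± 0.23 (adjusted p = 5.24e-05), Il1rap at -1.39 ± 0.30 (adjusted p = 0.0172) and Il1r1 at -1.27 ± 0.18 (adjusted p = 0.00105) in edgeR, beside 3.5% of all genes. For Il1rl1 in NFKBIZ flox the interaction was 0.71 ± 0.20 with an adjusted p of 0.0594 in edgeR, and it passed in DESeq2 (adjusted p = 0.0380), with no filter (0.0132) and in the fit of 24 libraries (0.00770). In LDHA flox that of Il1rl1 was -0.39 ± 0.14 with an adjusted p of 0.109 in edgeR, and it passed with the library set as a block (0.0436). That of Il1r1 in LDHA flox was -0.56 ± 0.18 with an adjusted p of 0.0776 in edgeR. It passed in DESeq2 (0.0448), with no filter (0.00535), with the block (0.00191) and in the fit of 24 libraries (0.0231). The Irak3 interaction in LDHA flox was not called in limma (adjusted p = 0.0643). The 8 interactions called in edgeR were negative, so that the response of these members to IL-1β was lower with Cre than with GFP, whereas the value of Il1rl1 in NFKBIZ flox was positive. With 1 library left out at a time, the call was lost in 6 of 8 fits for Irak3 in LDHA flox (adjusted p = 0.0249 to 0.190 in edgeR), in 5 of 8 for Irak3 and 4 of 8 for Il1rl1 in NAMPT flox (0.0283 to 0.0900 and 0.0222 to 0.111) and in 4 of 8 for Il1rap in NFKBIZ flox (0.00400 to 0.0959). The other 4 were called in all 8 fits.

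The rest of the pathway was counted over 5 further lists. Of 18 genes that act between MyD88 and the IκB kinases, all were tested over the 3 floxed lines with GFP, 7 were called higher with IL-1β and 3 lower, beside 28.0% higher and 28.3% lower of all genes, with a median log2 fold change of 0.11. The genes that rose most were Map3k8, the kinase TPL2 (2.54 ± 0.11), Peli3, an E3 ubiquitin ligase of the pathway (1.64 ± 0.26), and Irak2 (0.70 ± 0.10), with Ikbkg, the IκB kinase subunit NEMO, at 0.42 ± 0.06. Tab1 (-0.43 ± 0.06) and Tab2 (-0.36 ± 0.05), which bind the kinase TAK1, and Chuk, the kinase IKKα (-0.35 ± 0.05), were the 3 called lower. Among other adaptors with a TIR domain, 2 of 3 tested were called higher, Tirap at 0.37 ± 0.07 and Ticam1 at 0.14 ± 0.06, the latter with an adjusted p of 0.0451 in edgeR, which was over 0.05 in 9 of 12 fits that left out 1 library (0.0431 to 0.106).

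Receptors and ligands for the related cytokines IL-18 and IL-36 were scarce, and several rose. Of 6 other receptors of the family 3 were tested. Il18rap, the accessory chain of the IL-18 receptor (2.92 ± 0.31), and Il1rl2, the IL-36 receptor (1.37 ± 0.19), were called higher, and Il1rapl1 was called lower (-1.32 ± 0.24). Of 7 other ligands and binding proteins 3 were tested, and Il36g (4.68 ± 0.41) and Il18bp (0.47 ± 0.14) were called higher. Il36g, which encodes the agonist IL-36γ, had 0 to 6 reads in the GFP libraries without IL-1β and 59 and 29, 44 and 27, and 27 and 38 reads with it in LDHA flox, NAMPT flox and NFKBIZ flox. It thus passed the filter of 1 CPM through libraries with IL-1β alone, and the filter favoured a higher value with IL-1β. With Cre and IL-1β it had 6 and 4, 0 and 4, and 0 and 0 reads. Of 9 genes of IL-1 maturation and release 4 were tested and 3 were called higher, Casp4, mouse caspase-11 of the non-canonical inflammasome (3.00 ± 0.10), Gsdmd, which forms the release pore (1.24 ± 0.14), and Casp8 (0.36 ± 0.07).

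Under IL-1β, of the 18 genes between MyD88 and the IκB kinases 2 were called higher and 3 lower with Cre in LDHA flox (16.9% and 17.0% of all genes), 7 and 3 in NAMPT flox (25.0% and 23.4%), and 0 and 3 in NFKBIZ flox (8.16% and 9.20%). Irak2 was higher with Cre in LDHA flox (1.18 ± 0.11) and NAMPT flox (1.31 ± 0.14) and lower in NFKBIZ flox (-0.39 ± 0.12, adjusted p = 0.0421 in edgeR, and not called in DESeq2, with an adjusted p of 0.0956). Irak2 was at 11.7 and 12.5 CPM with GFP and 27.7 and 26.3 CPM with Cre in LDHA flox, 9.74 and 12.5 against 28.5 and 25.7 CPM in NAMPT flox, and 22.7 and 22.9 against 17.6 and 17.7 CPM in NFKBIZ flox. Irak2 and Irak3, a signalling and an inhibitory member of 1 kinase family, were thus called in opposite directions with Cre in LDHA flox and NAMPT flox and in the same direction in NFKBIZ flox. Gsdmd was called higher with Cre in the 3 lines (1.58 ± 0.13, 1.90 ± 0.16 and 0.92 ± 0.26), and Casp4 was called lower (-2.35 ± 0.26, -3.32 ± 0.35 and -0.56 ± 0.17), the NFKBIZ flox value of Casp4 being lost when the 24 floxed libraries were fitted together (adjusted p = 0.155 in edgeR). Il18rap was called lower in LDHA flox (-2.71 ± 0.46) and NAMPT flox (-2.54 ± 0.49), and in NFKBIZ flox it had -0.79 ± 0.53 with an adjusted p of 0.355 in edgeR. Ikbkg was called lower in the 3 lines (-0.83 ± 0.10, -0.94 ± 0.10 and -0.36 ± 0.11). In LDHA flox and NAMPT flox, Tab2 (-0.52 ± 0.09 and -0.52 ± 0.07) and Chuk (-0.44 ± 0.11 and -0.64 ± 0.12) were called lower and Map3k7, the kinase TAK1 (0.33 ± 0.09 and 0.27 ± 0.10), higher. With 1 library left out at a time, the NFKBIZ flox call was lost in 4 of 4 fits for Irak2 (adjusted p = 0.0608 to 0.187 in edgeR) and in 3 of 4 for Ikbkg, Gsdmd and Casp4, and that of Map3k7 in 2 of 4 in LDHA flox and 4 of 4 in NAMPT flox, and of Chuk in 2 of 4 in LDHA flox.

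In wild type, 4 contrasts of 2 against 2 libraries addressed IL-1β and FX11, and edgeR called no gene in any of them, members included (0.00% of 15461 genes). At an unadjusted p under 0.05 it passed 68 genes for FX11 alone, 102 for FX11 under IL-1β, 153 for IL-1β and 860 for IL-1β with FX11, none of them a member, and DESeq2 called 2, 1, 6 and 153 genes. Since 2 of the 8 libraries went against their labels, the members are given per library. In set 1, Irak3 was at 8.33 CPM in the library labelled untreated, 6.28 in that labelled FX11, 143 in that labelled IL-1β and 128 in that labelled IL-1β with FX11. Il1rl1 was at 23.2, 34.5, 155 and 121 CPM in the same order, Il1r1 at 47.2, 42.4, 134 and 80.4 CPM, Il1rap at 11.4, 10.7, 35.4 and 27.1 CPM, and Il1rn at 10.3, 4.34, 21.6 and 11.1 CPM. Both libraries with IL-1β in their label were the high ones for Irak3, Il1rl1, Il1r1 and Il1rap in set 1.

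In set 2 the order differed. Irak3 was at 7.90 CPM in the library labelled untreated, 45.9 in that labelled FX11, 8.89 in that labelled IL-1β and 37.1 in that labelled IL-1β with FX11. Il1rl1 was at 4.96, 57.4, 4.78 and 21.7 CPM, Il1r1 at 26.7, 78.4, 21.8 and 41.8 CPM, Il1rap at 9.41, 17.4, 9.56 and 12.4 CPM, and Il1rn at 7.61, 14.6, 3.14 and 1.27 CPM. For these 5 members the library labelled FX11 was the highest of set 2 and that labelled IL-1β lay within 1 CPM of the untreated one or below it. Il1rn differed from the other 4 in being lowest in the library labelled IL-1β with FX11. Without the 2 libraries that went against their labels, the IL-1β and the FX11 group hold 1 library each, which is assumed to vary like the other 2 groups, and edgeR called 1 gene for IL-1β and 1 for IL-1β with FX11, neither of them a member, and 0 for FX11 with or without IL-1β, with 63 and 117 genes at an unadjusted p under 0.05. Summed macrophage and leukocyte markers lay between 103 and 279 CPM in wild type, against at most 66.8 CPM in the floxed lines, and their part in the levels of the members was not tested.

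**Figure D5:**
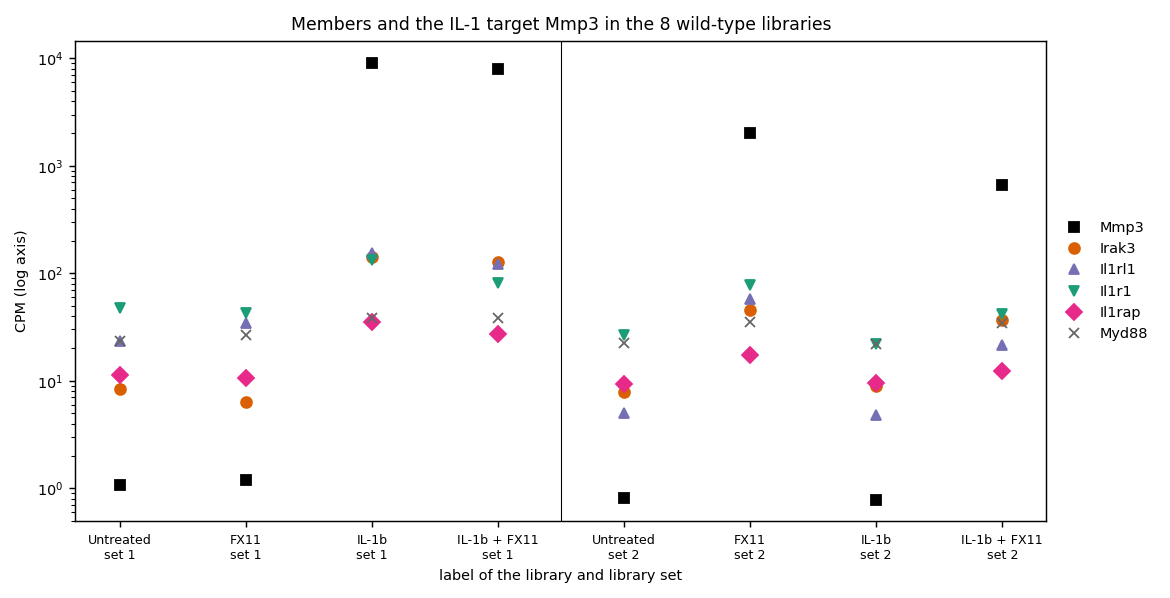
CPM on a log axis of 5 members and of the IL-1 target Mmp3 in the 8 wild-type libraries, ordered by label within set 1 (left) and set 2 (right), with no replicate at a position. In set 2, Mmp3 and Irak3 were at 2016 and 45.9 CPM in the library labelled FX11 and at 0.784 and 8.89 CPM in that labelled IL-1β.

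Genes whose pattern over the 32 libraries was most like that of a member were found by the mean absolute difference of centred log2 CPM, over 14255 genes. Nearest to Irak3 were Il13ra1 (0.280 log2 units) and Glrx (0.374), against a mean absolute deviation of 1.33 for Irak3 itself. Nearest to Il1r1 were Clmp (0.229) and Slit2 (0.266), to Il1rap St3gal1 (0.213) and Trib1 (0.247), to Il1rl1 Plpp3 (0.549) and Htr2a (0.552), to Il1rn Adam23 (0.461) and Fndc1 (0.473), and to Myd88 Vrk3 (0.124) and Picalm (0.127). The libraries share depth, set and treatment across all genes, and these distances are a description of the pattern.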

How the data were processed

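RNA of 32 libraries was depleted of ribosomal RNA and sequenced. The authors aligned reads with STAR and counted uniquely aligned reads per gene with featureCounts, for which the submitters' processing notes give versions 2.0.4b and 1.45 and the build GRCm38, and deposited counts, CPM (count scaled to the library total) and RPKM (CPM per kilobase of gene length) for 41388 genes. Whether counting used the strand is not given in the sources used here. Groups came from the labels. The members and lists were chosen with earlier results of these data known.

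Counts were tested with edgeR 4.0.16 (R 4.3.3), by its quasi-likelihood test with TMM factors, two-sided, on genes over 1 CPM in 1 library or more (groups of 2) or in 5 or more (6 against 6), 355 ribosomal RNA genes left out. Genes were called at a Benjamini-Hochberg adjusted p of 0.05 or less over all genes tested. Within a line the 8 libraries were fitted, differences between lines used 24, and the comparison over 3 lines used 12 with line and library set as covariates. CPM in the text is the count over the TMM-scaled total, whereas RPKM is the deposited value. The test was tried on simulated counts. GENCODE M21 named 40340 of the identifiers. Libraries of a group differed by more than counting noise, with a chi-square per degree of freedom of at least 6.98, and the smallest total was 15830658 reads, so 3 reads lie under 1 CPM.

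Named genes were all members, of each other list the called genes with the largest change over the 3 lines, up to 3 each way, and any MyD88 to IκB kinase gene called in at least 2 lines. Nearest genes were taken with a prior count of 2 and a mean of at least 1 CPM. Targeted genes, IL-1 targets and cell type markers were separate lists. Alternatives were DESeq2 1.42.0, limma 3.58.1 (voomWithQualityWeights), RLE factors, filterByExpr, no filter, library set as a replicate block, 24 libraries in 1 fit, single library sets, wild type included and each library left out. Leaving out wild-type libraries that went against their labels was chosen after seeing the data.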

Additional observations from a re-analysis of the deposited data

Results flagged for a closer look

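No library of the 12 groups of 6 GFP libraries stood apart by its gap to the others. This cannot show that no library was an outlier, because each group pooled floxed lines that differed in level for members such as Il1r1 and Il1rl1. Libraries of a low or high line lie together, which hides a gap at the end of the range. The chance rate of about 1 in 20 groups assumes libraries of the same level and does not hold here. A test of the difference itself was called in edgeR for 16 effects of members. As interactions of Cre with IL-1β on the log2 scale, they were -0.71 for Irak3 and -0.60 for Myd88 in LDHA flox, -0.86 for Il1r1, -0.61 for Irak3 and -0.42 for Il1rl1 in NAMPT flox, and -2.49 for Irak3, -1.39 for Il1rap and -1.27 for Il1r1 in NFKBIZ flox. As differences between lines in the Cre effect under IL-1β, they were 1.93 for Il1rl1, 0.57 for Myd88, -1.70 for Irak3, -1.24 for Il1rap and -0.54 for Il1r1 in NFKBIZ flox minus LDHA flox, and 2.14 for Il1rl1, -2.01 for Irak3 and -1.10 for Il1rap in NFKBIZ flox minus NAMPT flox. Both sets of differences with NFKBIZ flox use the same 4 NFKBIZ flox libraries.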

How the results depend on the processing

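Of 268 recounts of called members under the alternatives, 248 stayed within 1.5 times the reported count and 20 did not. In LDHA flox the interaction called 2 members, 1 with limma voomWithQualityWeights, 4 with the library set as a replicate block and 1 to 2 with a library left out, and Cre without IL-1β called 1 member, 2 with no filter and 2 with the block. In NAMPT flox the interaction called 3 members, 1 with voomWithQualityWeights and 1 to 3 with a library left out, and with a library left out Cre without IL-1β called 1 to 2 and Cre under IL-1β 3 to 6. In NFKBIZ flox Cre under IL-1β called 3 members, 5 with no filter and 5 with 24 libraries in 1 fit, and IL-1β in Cre cultures called 2, and 1 without either Cre library that had no IL-1β. Of 120 fold changes of genes, 84 kept their side of the threshold under every alternative run, 21 lost and 12 gained a call in at least 1, and 3 reversed, none of them called. With 1 library left out, Cre under IL-1β gave -0.23 to 0.06 for Il1rap and -0.19 to 0.32 for Il33 (-0.03 without Cre with IL-1β replicate 2) in LDHA flox and -0.34 to 0.13 for Myd88 in NFKBIZ flox. Genes called over the whole table moved by more than 1.5 times for Cre without IL-1β (877 in LDHA flox, 289 to 1994 over the alternatives; 2319 in NAMPT flox, 1332 to 4311; 40 in NFKBIZ flox, 21 to 170), for the interaction (1825, 1081 to 3374; 3552, 2575 to 5648; 797, 344 to 1892), in NFKBIZ flox for Cre under IL-1β (2666, 1290 to 3733) and for IL-1β in Cre (3391, 1523 to 4605) and GFP cultures (4120, 2487 to 5489), and in LDHA flox minus NAMPT flox for IL-1β (1, 0 to 21) and Cre under IL-1β (23, 21 to 95). The causes were not tested. The block was possible in LDHA flox and NAMPT flox, where libraries of 1 set deviated together (correlations of 0.35 to 0.58 and 0.36 to 0.50 over 12683 genes), and none could be made in NFKBIZ flox, whose libraries are all of set 2.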
